A study of Mus musculus with 2 samples.

Results

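The genes described here make cholesterol and fatty acids, or control how much of them a cell makes. They are 32 of the 28692 gene rows in both count matrices, chosen by symbol as a list of known pathway genes, with earlier results of these data known, and all 32 were found. They fall into 18 enzymes of sterol synthesis, 9 enzymes of fatty acid synthesis, and 5 regulators and carriers.

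Cells build cholesterol from acetyl-CoA through mevalonate, isoprenoid diphosphates, squalene and lanosterol, and build fatty acids from the same acetyl-CoA through malonyl-CoA, with later elongation and desaturation. Both routes answer to the sterol regulatory element-binding proteins, transcription factors made by Srebf2, best known for sterol enzymes, and Srebf1, whose main form in many tissues acts on fatty acid enzymes. When membrane sterol is low, the escort protein SCAP carries them from the endoplasmic reticulum to the Golgi for cleavage, and INSIG proteins hold the pair back when sterol is plentiful. Dividing blood progenitors need both products for new membrane, and neutrophils are known to build granules and reshape their membranes as they mature.

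The cells were bone marrow cells of C57BL/6 mice, enriched for stem and progenitor cells. They were infected with a retrovirus carrying an shRNA. GFP-positive LSK cells (no lineage markers, with Sca-1 and Kit on the surface, the marrow fraction that holds blood stem cells) were then sorted and cultured until day 3 in 20% serum, with 10 ng/ml of GM-CSF and 10 ng/ml of SCF. One library held cells with a control shRNA that targets no mouse gene, and the other held cells with an shRNA against Cxxc5, which encodes a CXXC zinc finger protein. Each library pooled 5 samples, so there was 1 library per group and no replicate. Every difference below compares 2 libraries and carries no p-value. Age, sex and hairpin sequence of the groups were not given in the sources used here.

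Of 2925 control and 6015 knockdown barcodes, 2912 and 6004 were kept, with a median of 17197 and 10599 UMIs per cell. A UMI is a unique molecular identifier, counted once per captured transcript. The libraries shared 26 barcodes. Cxxc5, the targeted gene, had 462 control and 73 knockdown UMIs. As CPM (a gene's UMIs over all UMIs, times 1000000) these are 9.38 and 1.16, with a log2 ratio of -3.01 (-3.39 to -2.65). Intervals given in brackets are at 95% and hold counting error alone. UMI counts from 3′ ends stand for molecules and were not divided by gene length, so levels are compared between cells and libraries and not between genes.

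Cells were sorted into 7 classes by the summed UMI share of marker genes, none of which is a member of the synthesis genes. The classes were granule-protease progenitors (Mpo, Elane, Prtn3, Ctsg and others), early neutrophils (S100a8, S100a9, Ngp and others), late neutrophils (Ltf, Camp, Lcn2 and others), monocytes, dendritic cells, mast cells or basophils, and the rest. Each name means cells like that type by those transcripts. Progenitors held 1389 control and 3571 knockdown cells, early neutrophils 478 and 785, and late neutrophils 268 and 381. Monocytes held 225 and 219 cells, dendritic cells 64 and 65, mast cells or basophils 112 and 228, and the rest 376 and 755. The classes are ranges of a score: 21.3% of control and 18.6% of knockdown cells lay within 20% of a cut-off. Transcripts of the stem and multipotent progenitor list (Cd34, Kit, Ly6a and others) had a median of 0 in control late neutrophils and of 1.91 per 10000 UMIs in the control cells called rest.

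The promoters of 25 members were in the RefSeq table used (GRCm38.p6), as 31 windows from 250 bases before to 50 after a start site. 3 are shown because they belong to genes on which the comparisons below turn, from both routes. Capitals mark matches to the sterol regulatory element TCACNCCAC and to the CCAAT box (ATTGG on the other strand). They are printed 5′ to 3′ on the gene's own strand. The windows are chr13:119690101-119690400, plus strand, for Hmgcs1, chr13:8885356-8885655, plus strand, for Idi1, and chr11:120824498-120824797, minus strand, for Fasn.
Hmgcs1: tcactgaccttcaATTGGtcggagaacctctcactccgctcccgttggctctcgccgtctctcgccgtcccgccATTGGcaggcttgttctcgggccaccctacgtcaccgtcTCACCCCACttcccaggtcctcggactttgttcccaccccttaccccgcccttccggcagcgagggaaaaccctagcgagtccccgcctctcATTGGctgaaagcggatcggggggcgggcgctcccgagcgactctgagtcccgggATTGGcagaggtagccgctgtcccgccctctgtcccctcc
Idi1: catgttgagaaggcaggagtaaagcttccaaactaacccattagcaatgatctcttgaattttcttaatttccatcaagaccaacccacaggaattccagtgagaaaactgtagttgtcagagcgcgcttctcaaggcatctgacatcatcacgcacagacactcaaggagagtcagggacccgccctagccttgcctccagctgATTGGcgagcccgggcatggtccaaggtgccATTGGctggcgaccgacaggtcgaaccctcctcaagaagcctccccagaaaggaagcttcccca
Fasn: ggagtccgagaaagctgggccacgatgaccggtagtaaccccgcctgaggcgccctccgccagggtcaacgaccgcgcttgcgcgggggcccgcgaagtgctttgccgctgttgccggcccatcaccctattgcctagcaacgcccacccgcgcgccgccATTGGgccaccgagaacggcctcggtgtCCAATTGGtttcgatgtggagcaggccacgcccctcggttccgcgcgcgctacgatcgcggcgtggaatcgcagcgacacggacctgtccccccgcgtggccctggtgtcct

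The strict sterol element was found in 1 of the 31 windows, that of Hmgcs1, at position 114 from the window's first base. That is 3.23% of the members' windows against 1.24% of all 32851 windows in the table. A CCAAT box on either strand was found in 67.7% of the members' windows and 37.4% of all windows. The GC box GGGCGG was found in 74.2% against 35.7%, and the E-box CACGTG in 22.6% against 7.15%. Some genes have several windows, and those of Scap overlap and share an E-box. Counted by gene, the shares were 80% against 41.1% for the CCAAT box and 80% against 38.2% for the GC box. For the E-box they were 24% against 8.09%. The comparison set was not limited to genes expressed in these cells. Both strands were searched and each motif was counted on its own, also where matches overlapped, as the last 2 CCAAT boxes of Fasn do. A match describes these letters and not a bound site. No window was at hand for Sqle, Fdft1, Fdps, Stard4, Scd1, Scd2 and Fads1.

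The 2 routes had different patterns over the cell classes, and the patterns were alike in both libraries. The fatty acid enzymes summed were highest in granule-protease progenitors, at 345 CPM in control and 416 in knockdown cells. They were lowest in late neutrophils, at 108 and 126 CPM, which was 3.19-fold and 3.29-fold below the progenitors. Early neutrophils lay between, at 213 and 245 CPM. The sterol enzymes summed were highest in early neutrophils, at 857 and 988 CPM, and lowest in the rest, at 400 and 429 CPM. In late neutrophils they stood at 668 and 832 CPM, against 647 and 707 in progenitors. So the steep gradient of the fatty acid sum along the neutrophil classes had no counterpart in the sterol sum.

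**Figure D1:**
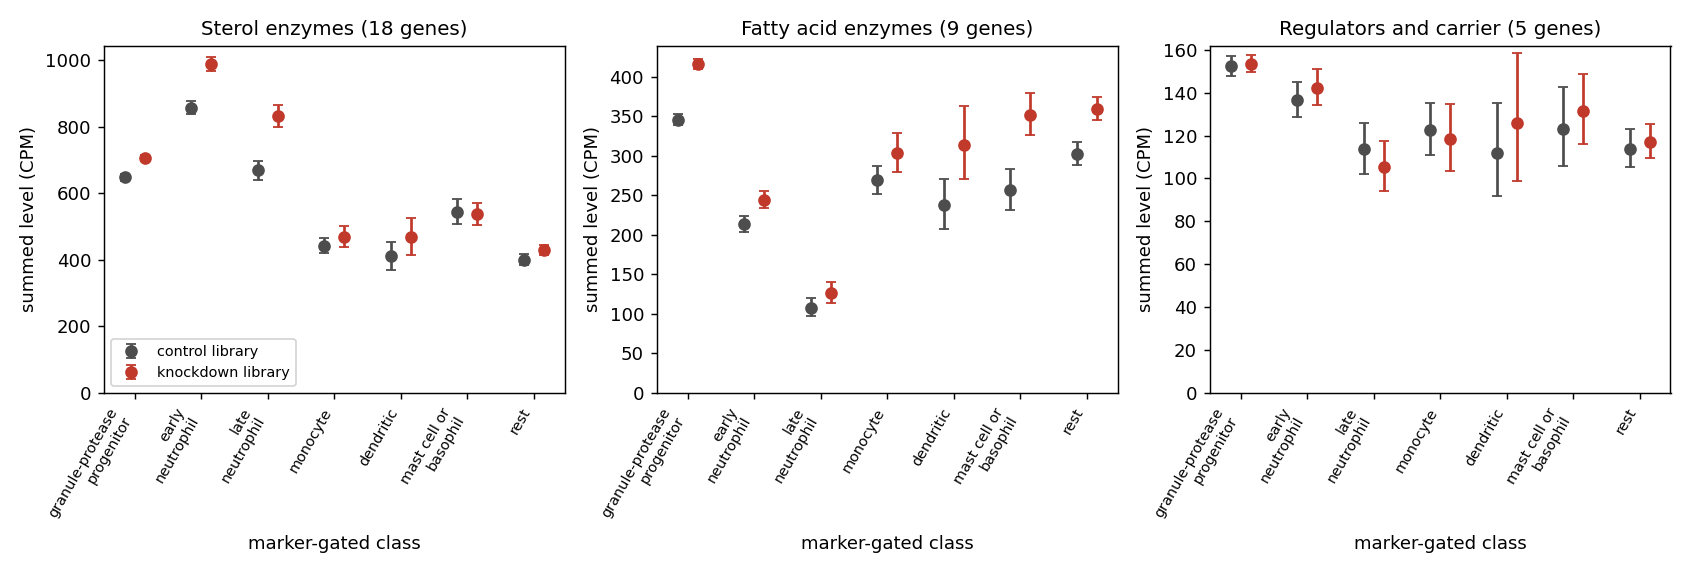
Summed level (CPM, vertical axis from 0) of the 18 sterol enzymes, the 9 fatty acid enzymes and the 5 regulators and carriers in each marker-gated class, with 1 point per library and 95% counting intervals. The sterol sum peaks in early neutrophils at 857 (control) and 988 (knockdown), while the fatty acid sum is lowest in late neutrophils at 108 and 126.

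Neutrophil granule and alarmin transcripts take a large part of the UMIs in late neutrophils. Their marker list had a median of 2042 per 10000 UMIs in the control cells and 1954 in the knockdown cells, against 10.0 and 9.0 in progenitors. The median log2 ratio of all genes, late neutrophils over the other cells, was -0.62 in control and -0.59 in knockdown cells, and levels are read against it. The fatty acid sum stood at -1.50 (-1.66 to -1.35) and -1.59 (-1.74 to -1.44), below that median. The sterol sum stood at 0.08 (0.02 to 0.15) and 0.26 (0.20 to 0.32), above it.

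Most of the excess of the sterol sum in early neutrophils over progenitors was a single gene, Fdps (ENSMUSG00000059743, chr3:89093588-89101959, minus strand, GRCm38). Its product, farnesyl diphosphate synthase, makes the isoprenoid that leads to squalene and to protein prenylation. Its control levels were 137 CPM in progenitors, 320 in early and 319 in late neutrophils, 76.4 in monocytes, 52.4 in dendritic cells, 98.8 in mast cells or basophils and 56.0 in the rest. The knockdown levels in the same order were 154, 371, 364, 80.3, 48.3, 89.9 and 53.0 CPM. Both neutrophil classes were far above all other classes in both libraries. Early neutrophils over progenitors gave a log2 ratio of 1.22 (1.15 to 1.30) in control and 1.27 (1.21 to 1.33) in knockdown cells. Fdps held 25.6% of the sterol UMIs in control and 24.9% in knockdown cells. Its counts are uncertain: its end overlaps Gm43738 on the same strand, and 4 processed pseudogenes carry near-identical copies of it, with identities from 95.5% to 99.1% over 123 to 448 bases.

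Without Fdps the sterol sum was lowest in late neutrophils of the progenitor and neutrophil classes. In the control library it was 510 CPM in progenitors, 537 in early and 350 in late neutrophils. In the knockdown library it was 553, 617 and 468 CPM. Late neutrophils over progenitors gave -0.55 (-0.64 to -0.46) and -0.24 (-0.32 to -0.16) on the log2 scale, in place of 0.05 and 0.23 with Fdps. Late neutrophils over all other cells gave -0.45 and -0.18 without Fdps, both above the all-gene medians of -0.62 and -0.59.

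Members were counted as higher or lower in a class where they stood at least 1.5-fold from all other cells in both libraries. The comparison took genes of at least 10 CPM on either side, and the counts are set beside the share of all such genes. In late neutrophils 28 members were measured. Of these, 13 were lower, against 45% of all genes, a share near that of all genes. Fdps was the 1 higher, against 7.27%, a share below that of all genes. The lower members included all 7 measured fatty acid enzymes (Scd2, Fasn, Acaca, Acly, Elovl5, Elovl6 and Fads1), 3 sterol enzymes (Cyp51, Dhcr7 and Acat2) and 3 regulators (Insig1, Srebf1 and Scap). In early neutrophils 3 of 28 were lower (Scd2, Fasn and Elovl6), against 13.7% of all genes, and 2 were higher (Fdps and Tm7sf2), against 5.03%. Both shares are near those of all genes. The counts of Tm7sf2 are uncertain, since it overlaps Vps51 on the same strand over 532 bases. In progenitors 2 of 27 were higher (Scd2 and Elovl6), against 3.17%, and 0 were lower, against 4.43%.

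Sterol enzymes made up most of the members that were lower in the rest. There, 7 of 27 members were lower, 6 of them sterol enzymes (Fdps, Mvd, Pmvk, Sc5d, Msmo1 and Nsdhl) with Insig1, against 6.05% of all genes, and 0 were higher, against 3.94%. In dendritic cells 9 of 27 were lower, against 14.9%, and Srebf2 was the 1 member higher, against 12.7%. In monocytes Fdft1 and Fdps were lower, against 4.66%, and 0 were higher, against 7.06%. In mast cells or basophils Fdps and Sc5d were lower, against 6.07%, a share near that of all genes, and 0 were higher, against 7.33%. The sterol members there had a median log2 ratio of -0.02 in control and -0.35 in knockdown cells, against -0.04 and -0.03 for all genes. The sterol sum there stood at -0.23 (-0.33 to -0.12) in control and -0.40 (-0.49 to -0.31) in knockdown cells. Without Fdps it was -0.08 (-0.20 to 0.03) and -0.25 (-0.34 to -0.15). The dendritic values rest on 64 control and 65 knockdown cells.

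**Figure D2:**
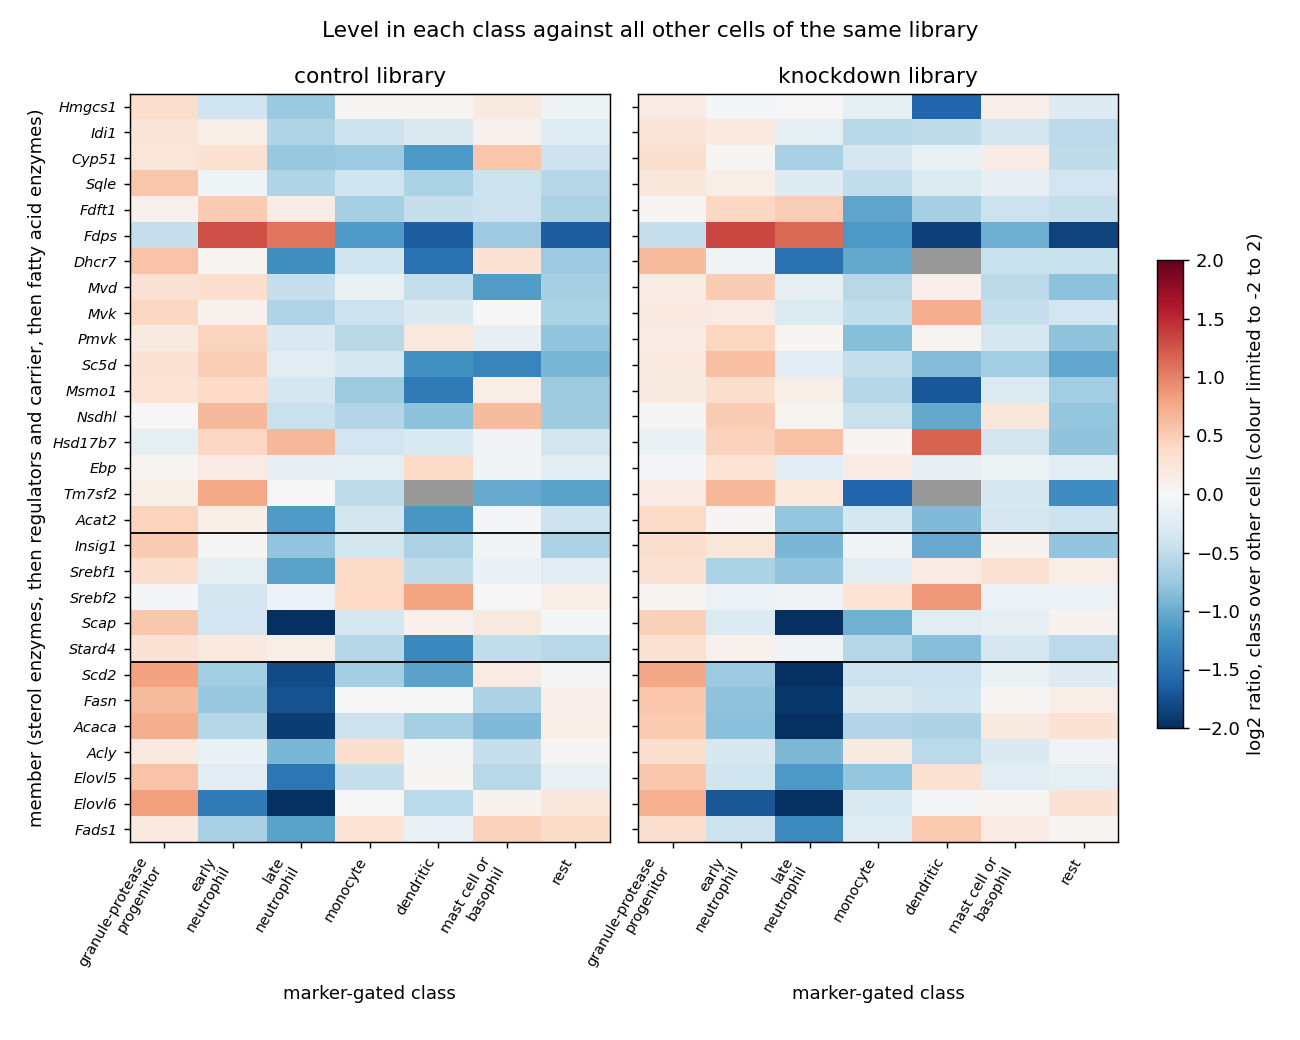
log2 ratio of each member's level in a class over all other cells of the same library (colour, limited to -2 to 2), for 29 members in 7 classes, control library left and knockdown library right. Grey marks 3 UMIs or fewer in the class, and Lss, Scd1 and Fads2 are left out. The fatty acid enzymes at the bottom are red in progenitors and blue in late neutrophils in both panels, and Fdps is red in both neutrophil classes.

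Among fatty acid enzymes the gradient was steep for Elovl6, Scd2, Fasn and Acaca and shallower for Acly. Elovl6, which elongates palmitate, had 37.7, 12.7 and 5.12 CPM in control progenitors, early and late neutrophils, and 41.1, 11.9 and 9.05 CPM in the knockdown library. Scd2, a stearoyl-CoA desaturase that makes monounsaturated fatty acids, had 91.7, 48.9 and 22.4 CPM, and 127, 69.0 and 24.5 CPM. Both genes stepped down from progenitors to late neutrophils in both libraries. Fasn, the fatty acid synthase itself, had 61.3, 32.6 and 16.0 CPM, and 66.4, 35.7 and 16.1 CPM. Acaca, the acetyl-CoA carboxylase that makes malonyl-CoA, had 18, 10.5 and 4.16 CPM, and 20.7, 10.9 and 3.35 CPM, the last from 10 UMIs. Acly, ATP citrate lyase, which supplies acetyl-CoA to both routes, had 66.6, 58.0 and 34.2 CPM, and 81.2, 61.4 and 41.2 CPM. Its late neutrophil over progenitor log2 ratio was -0.96 (-1.26 to -0.68) and -0.98 (-1.25 to -0.72), against -2.88 (-3.69 to -2.18) and -2.18 (-2.79 to -1.64) for Elovl6. No median of all genes is given here for that ratio. Over all other cells, late neutrophils gave -0.92 and -0.89 for Acly, with all-gene medians of -0.62 and -0.59.

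Outside the neutrophil classes the fatty acid enzymes varied less. Acly in monocytes was 77.3 CPM in control and 85 in knockdown cells, its highest class in both. Fads1, a polyunsaturated fatty acid desaturase, had 15.8 CPM in control progenitors and 10.1 in early neutrophils. Fads2 and Scd1 were rare. Fads2 had 82 and 127 UMIs in all kept cells. Scd1, the desaturase best known from liver and fat, had 18 and 69 UMIs, and none in the dendritic cells of either library, which allows up to 3.14 and 5.18 CPM, taken as 3 counts in the class.

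Sterol enzymes other than Fdps shared parts of the neutrophil pattern. Squalene synthase Fdft1 had 17.6, 22.9 and 18.9 CPM in control progenitors, early and late neutrophils, and 19.1, 24.2 and 26.2 CPM in the knockdown library. Its end overlaps Ctsb, which lies on the opposite strand, and Cyp51, Lss, Srebf1 and Elovl6 also overlap a counted gene on the opposite strand. Msmo1, a methylsterol oxidase, had 41.8, 48.4 and 30.7 CPM, and 46.4, 54.7 and 48.3 CPM. Dhcr7, the reductase of the last step to cholesterol, went the other way, with 17.0, 14.9 and 6.40 CPM, and 19, 15.8 and 6.04 CPM. Its late neutrophil level was the lowest of these 3 classes in both libraries, on 20 and 18 UMIs. Of the early steps, mevalonate pathway entry by Hmgcs1 was 31.4, 22.4 and 17.3 CPM in control and 32.1, 30.4 and 30.5 CPM in knockdown cells, so that a gradient seen in the control library was not seen in the other. Ebp, a sterol isomerase, ranged only from 48.9 to 73.3 CPM over the 7 control classes and from 48.6 to 65.9 CPM over the knockdown classes.

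Among regulators, Srebf2 and Scap differed in where they were high. Srebf2 was highest in dendritic cells, at 45 CPM in control and 50.1 in knockdown cells, on 43 and 29 UMIs, and stood at 26.2 and 27.9 CPM in progenitors. Scap was 19.5 and 24.3 CPM in progenitors and 4.16 and 4.36 CPM in late neutrophils, on 13 UMIs in each library. Srebf1 was close to the minimum level in most classes, at 11.4 and 11.6 CPM in progenitors. Insig1, itself a known target of the pathway, was 31.6 and 29.9 CPM in progenitors and 16.3 and 15.1 CPM in late neutrophils. Over all other cells, late neutrophils gave -0.78 and -0.91 for Insig1 on the log2 scale, with all-gene medians of -0.62 and -0.59. Stard4, a soluble sterol carrier, was 63.6, 65.1 and 63.3 CPM over control progenitors, early and late neutrophils and 59.8, 58.7 and 53.3 CPM in the knockdown library, a range within which neighbouring classes did not differ beyond their intervals.

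As a description, levels were correlated over the 14 points given by 7 classes in 2 libraries. These points share library and depth. Fdps followed the sterol sum, of which it is a part, with r = 0.95, and Fdft1 followed it with r = 0.92. Hmgcs1 had r = 0.13 and Ebp 0.19, so neither followed a sum of which Fdps is a large part. Of the fatty acid enzymes, Fasn had r = 0.96 with their sum, Acaca 0.95, Elovl6 0.93 and Scd2 0.93. Fads1 had 0.88, Elovl5 0.84 and Acly 0.81, and the rare Scd1 and Fads2 had 0.42 and 0.36. Each enzyme is part of the sum it was set against, so these values are not independent of it. Scap had r = 0.91 and Srebf1 0.85 with the fatty acid sum. Fdps had -0.62. Of 2539 genes of at least 50 CPM outside the members, the 8 nearest to the sterol sum were Tmed3 (0.97), Gpi1, Plin3, Tmbim6, Atp6ap2, Ubb, Gatm and Cited2 (0.94). Those nearest to the fatty acid sum were Ddb1 (0.99), Gm8186, Psmg3, Pop5, Mrpl11, Sssca1, Glrx5 and Cnot1 (0.97).

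The difference by cell cycle phase depended on how phases were called. They were first called in cells thinned to 5000 UMIs, giving 321 G1, 755 S and 1721 G2/M cells in control and 182, 1599 and 3582 in knockdown cells. The sterol sum, G2/M over G1, had a log2 ratio of 0.23 (0.17 to 0.29) in the control library, from 552 to 649 CPM. The fatty acid sum had 0.33 (0.24 to 0.42), from 243 to 306 CPM. The median of all genes was 0.13. In the knockdown library the sterol ratio was 0.25 and the fatty acid ratio 0.22, with an all-gene median of 0.15. At least 1.5-fold higher in G2/M were 2 of 27 members in the control library (Mvk at 0.80 and Srebf1 at 0.59), against 4.53% of all genes. In the knockdown library they were 4 of 27 (Dhcr7 at 0.98, Mvd, Nsdhl and Acaca at 0.68), against 9.76%. No member passed in both. The lower members were 0 in each library, against 3.37% and 4.62%. Within control progenitors alone the sterol ratio was 0.03 and the fatty acid ratio 0.23. With phases called at each cell's own depth the control sterol ratio was 0.61 and the fatty acid ratio 0.79, both past 1.5-fold, and the knockdown ratios were 0.20 and 0.55.

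Most members had a higher level in the knockdown library than in the control library, by little. Over all cells 27 of 32 members reached 10 CPM in a library, and 24 of these had a positive log2 ratio. The share of all genes with a positive ratio is not given here. The members' median was 0.19, against 0.03 over all 6743 genes. At least 1.2-fold higher were 6 members, against 3.8% of all genes, and 0 were lower, against 4.72%. The 6 were Scd2, Scap, Idi1, Acaca, Fads1 and Cyp51. Progenitors were 47.7% of the control and 59.5% of the knockdown cells, and with the knockdown classes weighted to the control library's shares 3 of the 6 passed, Scd2, Scap and Idi1. In cells thinned to 5000 UMIs 7 members were higher and 1 was lower. The shares of all genes under this weighting and this thinning are not given here. The middle 90% of all genes lay between -0.25 and 0.24. Within that range were 18 of the 27 members, and 9 were above it: Scd2, Scap, Idi1, Acaca, Fads1, Cyp51, Mvd, Acat2 and Acly.

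By route, the fatty acid sum went from 294 CPM in the control to 368 CPM in the knockdown library, a log2 ratio of 0.32 (0.29 to 0.35). The sterol sum went from 632 to 703 CPM, a ratio of 0.15 (0.13 to 0.17). The regulators and carrier went from 139 to 144 CPM, a ratio of 0.05. All 7 measured fatty acid enzymes and 11 of 15 measured sterol enzymes had intervals above 0, while of the 5 regulators Scap alone did. The share of all genes with such intervals is not given here. Of 18 measured further genes of synthesis and uptake, described below, 8 had intervals above 0. Intervals of counting error alone are narrow at these UMI totals.

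Scd2 (ENSMUSG00000025203, chr19:44293674-44306864, plus strand, GRCm38) had the widest difference of the measured members, with 3642 UMIs or 73.9 CPM in control and 6823 UMIs or 109 CPM in knockdown cells. The log2 ratio was 0.55 (0.50 to 0.61), above that of 99.6% of all genes measured. Its UMIs were spread over 1692 control and 3536 knockdown cells. Without it the fatty acid sum was 220 and 259 CPM, a ratio of 0.24 (0.20 to 0.27). Its neighbour in function, Scd1, had a level of 0.365 and 1.10 CPM, a ratio of 1.59 (0.82 to 2.42) that rests on 18 and 69 UMIs.

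The other fatty acid enzymes lay close together. Acaca had 14.8 and 18.4 CPM (0.32, 0.18 to 0.46), Fads1 14.9 and 18.1 CPM (0.28, 0.15 to 0.42), and Acly 62.9 and 75 CPM (0.25, 0.19 to 0.32). Elovl6 had 30.3 and 35.4 CPM (0.23), Fasn 51.3 and 58.9 CPM (0.20) and Elovl5 44.2 and 50.5 CPM (0.19). Each of these was higher in the knockdown library, with none past 1.5-fold.

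Among sterol enzymes, Idi1, which isomerises isopentenyl diphosphate, had 43.2 CPM in control and 53.9 CPM in knockdown cells (0.32, 0.24 to 0.40). Cyp51, the lanosterol demethylase, had 25.3 and 30.4 CPM (0.27, 0.16 to 0.37). Mvd, mevalonate diphosphate decarboxylase, had 37.5 and 45 CPM (0.26), and Acat2, the thiolase of the first step, 37.2 and 44.4 CPM (0.25), both just inside 1.2-fold. Fdps had 162 and 175 CPM (0.11, 0.07 to 0.15). Ebp at 56.4 and 56.1 CPM, Sc5d at 21.6 and 21.9 CPM and Mvk at 20.4 and 20.9 CPM had intervals that span 0, as did Nsdhl at 14.6 and 13.9 CPM. Lss, Hsd17b7 and Tm7sf2 were below the minimum level.

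Of the regulators, Scap had 16.7 CPM in control and 21.8 CPM in knockdown cells (0.38, 0.26 to 0.51). Srebf1 had 10.4 and 10.8 CPM, Srebf2 26.5 and 27.5 CPM, and Insig1 27.3 and 27.8 CPM, all within counting error. Stard4 had 58.3 and 55.8 CPM (-0.06, -0.13 to 0.01).

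**Figure D3:**
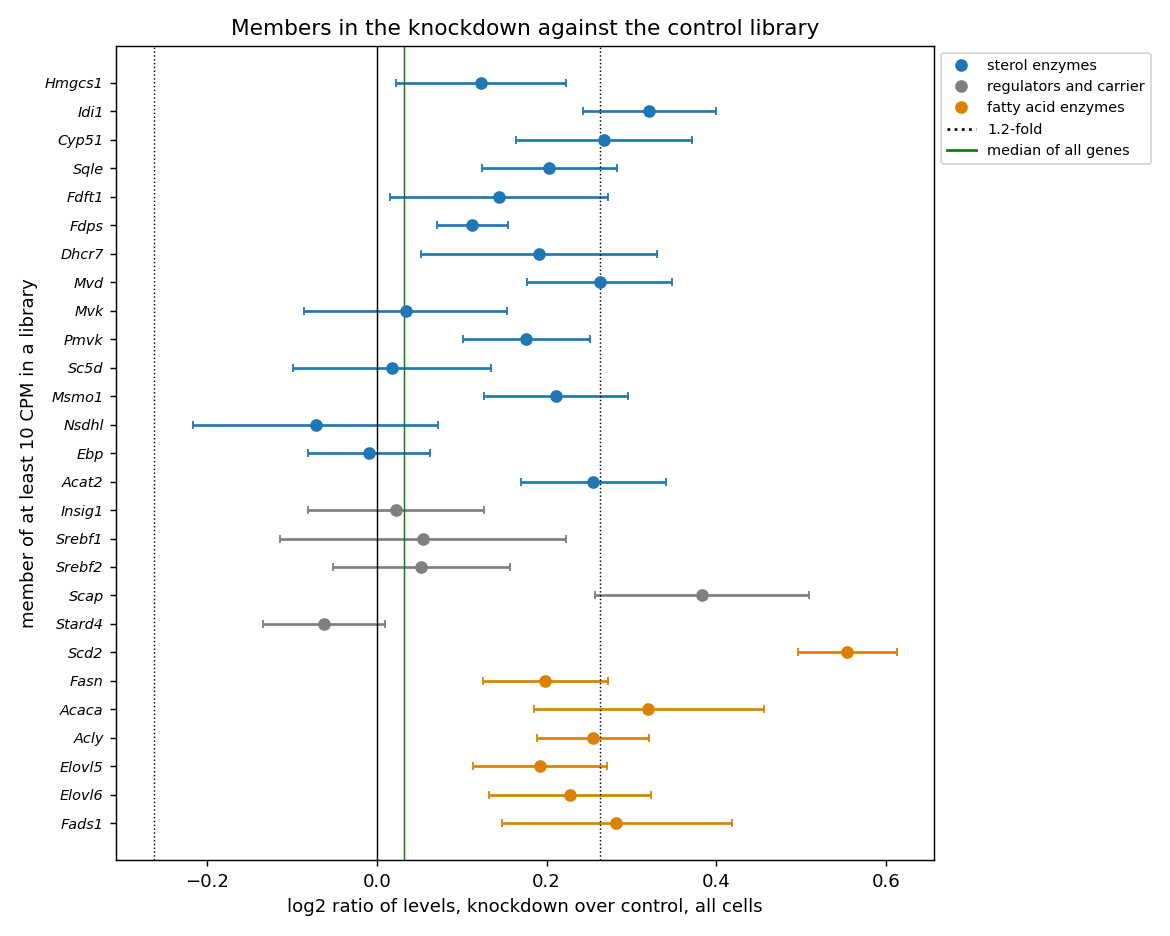
log2 ratio of levels, knockdown over control over all cells, for the 27 members of at least 10 CPM in a library, coloured by route, with 95% counting intervals. Dotted lines mark 1.2-fold in each direction and the green line the median of all genes at 0.03. Scd2 lies farthest to the right at 0.55, and only Nsdhl, Stard4 and Ebp lie left of 0.

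Within the 6 classes with at least 100 cells in each library, the fatty acid sum was higher in the knockdown library in 6 of 6, with log2 ratios from 0.17 to 0.46 and intervals above 0 in each. In progenitors it was 345 and 416 CPM (0.27, 0.23 to 0.31), and in mast cells or basophils 256 and 352 CPM (0.46, 0.27 to 0.64). In the latter class the granule-protease list had a median of 29.7 per 10000 UMIs in control and 45.6 in knockdown cells, and its part was not tested. Scd2 was positive in 6 of 6, with intervals above 0 in 4: in progenitors 91.7 and 127 CPM (0.48), in monocytes 47.4 and 81.4 CPM (0.78), in early neutrophils 48.9 and 69.0 CPM (0.50) and in the rest 73.2 and 92.6 CPM (0.34). In late neutrophils it had 22.4 and 24.5 CPM (0.13, -0.36 to 0.62). Without Scd2 the fatty acid ratio was 0.00 (-0.17 to 0.18) in monocytes and 0.09 (-0.02 to 0.20) in early neutrophils, so there the sum rests on Scd2.

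The sterol sum was higher in 5 of 6 classes, with 4 intervals above 0 and ratios from -0.02 in mast cells or basophils to 0.32 (0.23 to 0.40) in late neutrophils. The regulators had intervals spanning 0 in each of the 6 classes. Counted by member in progenitors, 6 of 27 were higher (Idi1, Cyp51, Scap, Scd2, Acly and Fads1), against 3.2% of all genes, and 0 lower, against 3.63%. In early neutrophils 7 of 28 were higher (Hmgcs1, Idi1, Sqle, Mvd, Scap, Scd2 and Fads1), against 10.4%, and 0 lower, against 9.12%. Idi1, Scap, Scd2 and Fads1 passed in both classes. In the rest 9 of 26 were higher, against 8.81%, and 0 lower, against 8.78%.

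Monocytes and mast cells or basophils had members in both directions. In monocytes 5 of 27 were higher (Cyp51, Msmo1, Ebp, Insig1 and Scd2), against 15.6% of all genes, and 3 lower (Fdft1, Dhcr7 and Srebf1), against 17.6%. Both shares are near those of all genes or below, and the members' median was -0.06. In mast cells or basophils 9 of 28 were higher, against 24.6%. They were 5 fatty acid enzymes (Scd2, Fasn, Acaca, Acly and Elovl5), 3 sterol enzymes and 1 regulator. Another 4 were lower, all sterol enzymes (Lss, Dhcr7, Mvk and Nsdhl), against 19.1%, a share not above that of all genes. Sterol enzymes thus went both ways. Of the 28 members, 3 had intervals above 0 and 0 below. The sterol members there had a median of -0.08 and the fatty acid members 0.43.

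Late neutrophils had the most sterol members higher in the knockdown library. There 13 of 22 measured members passed 1.2-fold, 11 of them among 15 sterol enzymes, against 24.7% of all genes, and 0 were lower, against 15.8%. The median of the sterol members was 0.47 and that of all genes 0.07. Hmgcs1 had 54 UMIs or 17.3 CPM in control and 91 UMIs or 30.5 CPM in knockdown cells (0.82, 0.32 to 1.33). Idi1 had 29.1 and 47.3 CPM (0.70, 0.31 to 1.10), Msmo1 30.7 and 48.3 CPM (0.65, 0.27 to 1.04) and Acat2 17.6 and 26.5 CPM (0.59, 0.08 to 1.11). The make-up of the class moved with this: the granule-protease list had a median of 57.4 per 10000 UMIs in the control cells and 107 in the knockdown cells, and the median depth was 11458 and 7473 UMIs. Their part in the difference was not tested.

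Depth differed between the libraries, so the comparison was repeated in progenitors by depth of the cell. The fatty acid ratio was 0.15 (-0.01 to 0.31) at 2000 to 8000 UMIs and 0.04 (-0.09 to 0.17) at 8000 to 12000 UMIs. It was 0.35 (0.20 to 0.49) at 12000 to 16000 and 0.38 (0.32 to 0.45) at 16000 to 50000 UMIs. So intervals of the fatty acid ratio in progenitors lay above 0 only in cells of at least 12000 UMIs. Both intervals below that depth spanned 0, on 169 and 136 control cells, which does not show that a difference was absent there. Without Scd2 the ratio was -0.003 (-0.19 to 0.19) at 2000 to 8000 UMIs and -0.016 (-0.17 to 0.14) at 8000 to 12000 UMIs. It was 0.26 (0.10 to 0.43) at 12000 to 16000 and 0.32 (0.25 to 0.40) at 16000 to 50000 UMIs. The band of 8000 to 12000 UMIs held the most knockdown progenitors. In that band Scd2 had 113 and 125 CPM (0.16, -0.09 to 0.41), and Scap and Idi1 had -0.03 each, with intervals that span 0. In the other 3 bands Scd2 had 0.48, 0.56 and 0.54, with intervals above 0. The sterol ratio was 0.29, 0.16, 0.13 and 0.10 in the same bands, each with an interval above 0. Without Fdps the sterol ratio was 0.24, 0.08, 0.19 and 0.12. Its interval at 8000 to 12000 UMIs (-0.03 to 0.19) spanned 0. The regulators had -0.44 (-0.63 to -0.26) at 8000 to 12000 UMIs, from 206 to 152 CPM, and 0.14 (0.04 to 0.24) at 16000 to 50000. The bands hold unequal numbers of progenitors: 169, 136, 92 and 992 control cells against 584, 1475, 1159 and 353 knockdown cells. Over all classes, cells of 8000 to 16000 UMIs gave a fatty acid ratio of 0.62 and 19 members higher, but progenitors were 32.1% of the control and 61.0% of the knockdown cells at 8000 to 12000 UMIs. The share of all genes higher in those cells is not given here.

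**Figure D4:**
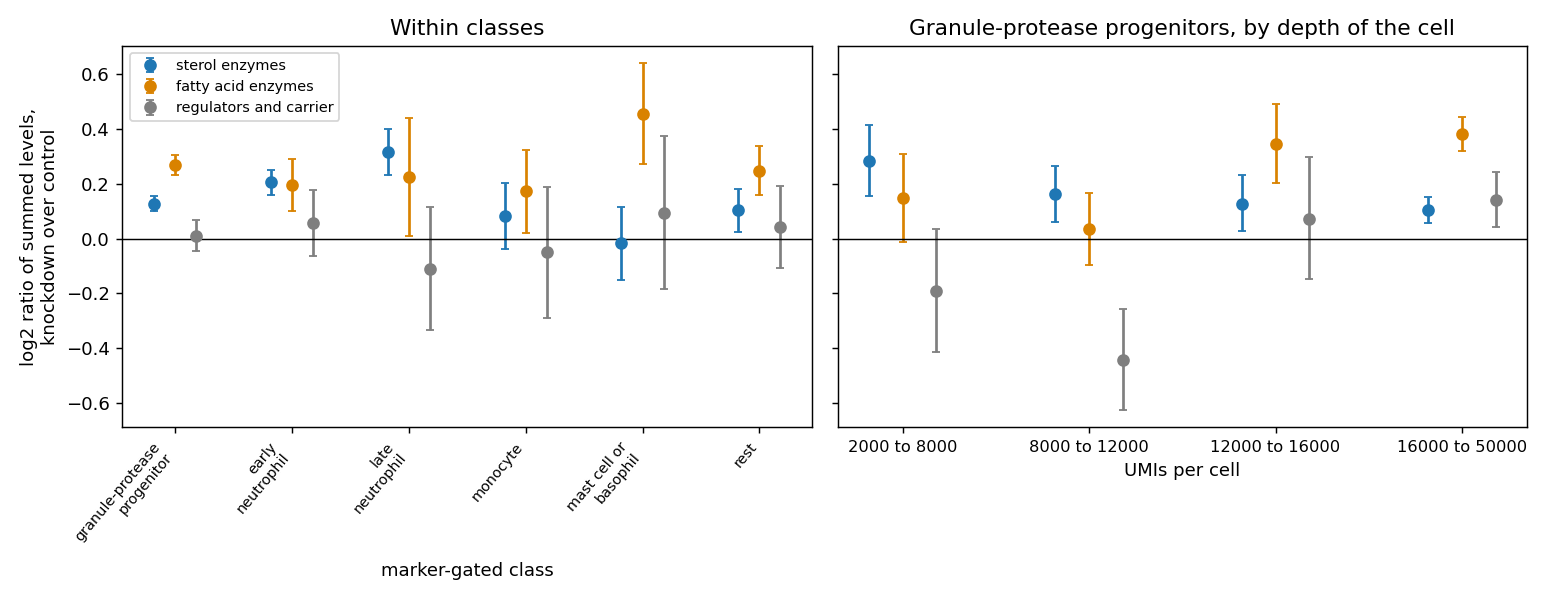
log2 ratio of summed levels, knockdown over control, for the 3 groups of genes with 95% counting intervals, within 6 classes (left) and within progenitors by UMIs per cell (right). Fatty acid enzymes lie above 0 in all 6 classes, from 0.17 to 0.46, and at 0.04 in progenitors of 8000 to 12000 UMIs.

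Other genes of the same pathways had medians nearer to that of all genes than the members had. Of 24 further genes of synthesis and uptake, 18 were measured over all cells. Acsl3, an acyl-CoA synthetase, was the 1 higher (11.1 and 13.5 CPM, 0.27), and Acsl4, which prefers polyunsaturated fatty acids, the 1 lower (13.4 and 10.9 CPM, -0.29). Over all genes, 3.8% were higher and 4.72% lower. The median of the 18 was 0.06, against 0.03 for all genes, with 8 intervals above 0 and 2 below. Of 20 genes of sterol storage, trafficking and efflux, 9 were measured, with 0 higher, 0 lower and a median of -0.05. Of these 9, 1 had an interval above 0 and 4 had intervals below 0. Soat1, which esterifies cholesterol for storage, had 52.5 and 46.0 CPM (-0.19, -0.27 to -0.12), and the lysosomal genes Lipa and Npc2 had ratios of -0.22 and -0.18.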

How the data were processed

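Each matrix deposited by the authors holds UMI counts by gene and barcode, made with Cell Ranger 2.1.1 on mm10 from 10x 3′ version 2 libraries, per the submitters' processing notes and the labels' protocols. Which annotation they counted against was not given in the sources. Gene positions and overlaps came from GENCODE M21 (GRCm38) and promoters from RefSeq.

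Cells of at least 500 genes and at most 10% mitochondrial UMIs were kept with scanpy 1.11.5. Scrublet marked 1 control and 6 knockdown cells, which is too few to use, so doublets were kept. UMIs were summed per class and library as CPM, with exact Poisson intervals. For ratios, the interval was that of the binomial split of UMIs (scipy 1.17.1). Intervals treat UMIs as independent and leave out differences between mice, infections, cultures and cells. There is 1 library per group, so no p-value was computed. The arithmetic was tested on simulated counts.

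The members and lists were chosen with earlier results of these data known. All 32 members were to be named, and other genes of the pathway only for up to 6 with the widest ratios at 10 CPM or more or where a result turns on them. Some genes of the further lists are counted in the totals but not reported here by name. Classes were gated per 10000 UMIs in a fixed order, with cut-offs set from the distributions of the marker sums: dendritic 10, mast cell or basophil 10, late neutrophil 50, neutrophil 150, monocyte 15 and granule-protease progenitor 100. Members were counted past 1.2-fold between libraries and 1.5-fold between classes or phases. Classes of under 100 cells in a library, the dendritic cells, were not compared between libraries. Thinning to 5000 UMIs left out 115 control and 641 knockdown cells. Cell weighting, depth, class and phase shares, doublets, filters, scaling, minimum level, fold, cut-offs, clusters and phase calls were varied. The comparisons in cells of 8000 to 16000 UMIs, without dendritic and mast cells or basophils, and at equal phase shares were added after seeing the data.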

Additional observations from a re-analysis of the deposited data

How the results depend on the processing

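No paired analysis was possible because each group has 1 library. Over all cells, the sterol ratio of 0.15 was 0.19 with every cell weighted the same, 0.19 in cells thinned to 5000 UMIs, 0.12 with the median of all genes set to 0 and 0.28 in cells of 8000 to 16000 UMIs. The fatty acid ratio of 0.32 was 0.28 in thinned cells, 0.26 at the control library's class shares, 0.29 with the median set to 0 and 0.62 at 8000 to 16000 UMIs. The regulators' ratio turned to -0.031 in thinned cells. The 6 members higher became 3 at the control library's class shares, 2 with a minimum of 50 CPM, 0 at 1.5-fold and 19 at 8000 to 16000 UMIs. The 0 members lower became 1 in thinned cells and 1 at 8000 to 16000 UMIs, where the members' median was 0.44. The share of all genes under each setting is not given here, so these counts are not read as a result about the members. Scd2 was between 0.47 and 0.89 over these settings, all of them over several classes; within progenitors of 8000 to 12000 UMIs it was 0.16. Within classes, clusters in place of gates gave 0.30 for sterol enzymes in early neutrophils and 0.37 for fatty acid enzymes in the rest. The cause of these shifts was not tested.

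Between classes, cut-offs raised by 1.5 times gave sterol ratios over the other cells of 0.19 (control) and 0.14 (knockdown) in progenitors, 0.50 in control early neutrophils, -0.0086 in control and 0.18 in knockdown late neutrophils, -0.50 in knockdown mast cells or basophils and -0.86 in the knockdown rest. The same cut-offs gave fatty acid ratios of -0.65 and -0.77 in early neutrophils, -0.28 in control monocytes and 0.12 in the control rest. Thinned cells gave fatty acid ratios of 0.65 and 0.63 in progenitors, -1.67 in control late neutrophils, -0.37 in control mast cells or basophils and 0.14 in the control rest. For phases called at each cell's own depth, the control sterol ratio was 0.61 for G2/M and 0.51 for S over G1, and the fatty acid ratio 0.79 and 0.74, against 0.55 and 0.47 in the knockdown library. Within control progenitors the sterol ratio was 0.026 for G2/M and 0.029 for S, and the fatty acid ratio 0.23 and 0.11. Within the control rest the sterol ratio was 0.15 and 0.10, and the fatty acid ratio 0.49 and 0.40. Depth limits members below 10 CPM and the dendritic class.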

Other observations

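Cyp27a1 and Me1, from the lists of further pathway genes, were below the minimum level and are named after their values were seen. The sterol hydroxylase gene Cyp27a1 had 5 UMIs in control and 22 in knockdown cells, and Me1, the malic enzyme that supplies NADPH, 23 and 50 UMIs in the same order. These are raw counts from unequal totals of 49268318 control and 62867598 knockdown UMIs, so they do not compare levels directly.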
